A study of Drosophila melanogaster with 12 samples.

Results

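Translational efficiency (TE), the level of an mRNA in polysomes relative to its level in the whole lysate, was compared between *bam* RNAi ovaries and UAS-*tkv* ovaries of *Drosophila melanogaster*. The comparison used 8 of the 12 polysome-seq libraries of the series, chosen by genotype and fraction as the labels give them. For each genotype there were 2 polysome and 2 input libraries, and 9585 of the 17023 genes in the count tables held enough counts to be tested. The *bam* RNAi flies carried UAS-Dicer2 and NosGAL4 with the *bam* RNAi construct, and the UAS-*tkv* flies carried NosGAL4 and UAS-*tkv* without UAS-Dicer2, so the transgene and the genotype cannot be told apart. NosGAL4 drives both constructs in the germline only, and the ovaries kept their somatic cells. Flies of both genotypes were fattened on yeast and ovaries were dissected 1 to 3 days after eclosion. Input RNA came from 20% of the lysate and was extracted with TRIzol, whereas polysome RNA came from gradient fractions extracted with acid phenol-chloroform. No label states that the 2 replicates of a group came from separate crosses, so every p-value measures only the spread between these libraries.

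Each germline stem cell (GSC) of the fly ovary divides next to somatic cap cells, whose BMP ligand acts on the receptor Thickveins (Tkv) and keeps the differentiation gene *bam* off. The daughter that leaves the niche is the cystoblast (CB), which expresses *bam* and enters differentiation. Germline expression of UAS-*tkv* is used to enrich ovaries for GSC-like cells, and loss of *bam* halts germ cells in a CB-like state. Polysomes are mRNAs that carry several ribosomes, so a higher polysome level at an equal input level is read as more ribosome engagement per mRNA. In bulk ovary RNA fewer cells of a type and less RNA per cell cannot be told apart.

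Libraries of one group stood apart from each other in both genotypes. Total counts ran from 5086998 to 15039925 per library. Polysome replicate 2 of *bam* RNAi correlated more closely with *bam* RNAi input replicate 2 (r = 0.973 across genes, log2 of CPM + 1, where CPM is counts scaled to a common library size of 1000000) than with *bam* RNAi polysome replicate 1 (r = 0.916). In UAS-*tkv* the polysome libraries correlated at 0.904, and polysome replicate 1 was closer to input replicate 1 (0.933). Input pairs correlated at 0.968 in *bam* RNAi and 0.950 in UAS-*tkv*. Genes are not independent replicates, so these values describe the libraries only. Cytosolic ribosomal protein mRNAs took 33.2% and 9.34% of counts in the *bam* RNAi polysome libraries and 14.5% and 22.8% in the *bam* RNAi inputs. The same mRNAs took 21.2% and 21.5% in the UAS-*tkv* polysome libraries and 20.4% and 19.4% in the UAS-*tkv* inputs. For the 7068 genes at a mean of 10 CPM or more, each polysome library was set over the mean input of its genotype. This ratio differed between the 2 *bam* RNAi polysome libraries by a median of 0.62 on the log2 scale, and between the 2 UAS-*tkv* polysome libraries by 0.42. Since both libraries of a genotype share 1 mean input, these gaps hold the spread of polysome levels and none of the spread between inputs. The genotypes differed in the ratio by a median of 0.27. The gap between the *bam* RNAi polysome libraries exceeded the difference between genotypes in 5143 of these genes (72.8%). That gap compares single libraries, whereas the genotype difference rests on 2 polysome libraries per genotype. A wider gap is therefore no test of the genotype difference.

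No gene differed in TE at an adjusted p under 0.05 (0 of 9585, or 0%) in edgeR's quasi-likelihood test with Benjamini-Hochberg adjustment, while 102 genes (1.06%) had an unadjusted p under 0.05. Without any true difference a share of 0.05 of the genes would lie under that p, so 1.06% is no excess. The median unadjusted p in the same test was 0.64. The lowest adjusted p in edgeR's test was 0.838, for *scaf*. The thresholds of the study, a difference of over 2-fold at an unadjusted p under 0.05, were passed by 101 genes (1.05%) in edgeR's test. Of these, 78 (0.814%) had higher TE in *bam* RNAi and 23 (0.24%) had lower TE. The study set these thresholds on DESeq2's likelihood ratio test, in which 130 genes were higher and 29 lower here. Since none passed after adjustment in edgeR's test, the 101 genes are described as a ranked set and not as differences in TE. Standard errors of the log2 TE differences had a median of 0.67. At an adjusted p under 0.05 DESeq2's likelihood ratio test called 3 genes, all with higher TE in *bam* RNAi: *scaf*, the FGF ligand gene *bnl* and the potassium channel subunit gene *Hk*. Of these, *scaf* had no count in either UAS-*tkv* polysome library, *bnl* had 0 and 2, and *Hk* had 0 and 1.

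Most of the ranked differences lay in the polysome libraries. Among the 78 genes with higher TE in *bam* RNAi, the polysome difference between genotypes was larger than the input difference in 70, and 41 had no count in either UAS-*tkv* polysome library. Among the 9484 genes outside both sets these counts were 6120 and 252. Among the 23 genes with lower TE, the polysome difference was the larger in 22, and 9 had no count in either *bam* RNAi polysome library, as did 128 of the 9484. Both sets were chosen on the TE difference, which a lack of polysome counts in either genotype itself makes large. These counts therefore describe the sets and are no test. The sets also differed in size and abundance. Over protein-coding genes only, the median annotated transcript was 2712 nt for 73 of the 78 genes and 1022 nt for 19 of the 23. It was 1969 nt for 8927 of the other 9484 genes tested. A mean of 10 CPM was reached by 28 of the 78, 11 of the 23 and 7029 of the 9484.

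**Figure D1:**
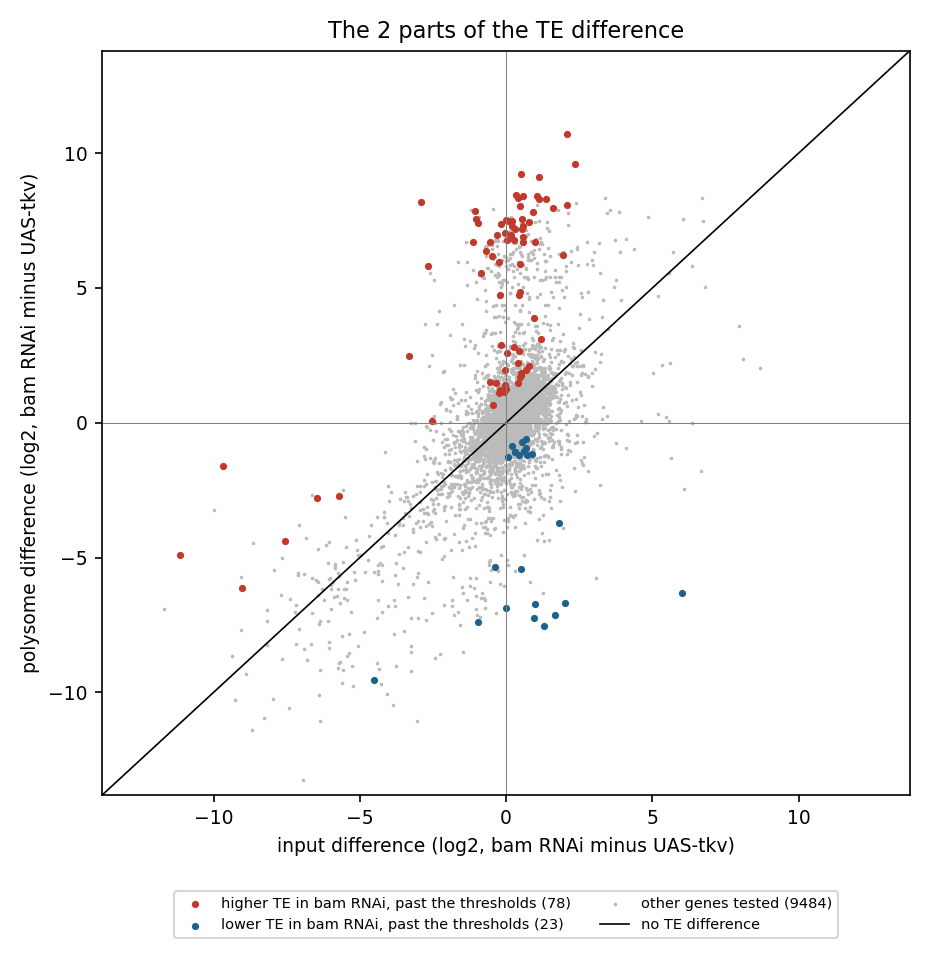
Input difference (x axis) and polysome difference (y axis) between genotypes for the 9585 genes tested, both as log2 of *bam* RNAi over UAS-*tkv*. Points above the diagonal have higher TE in *bam* RNAi. The 78 genes past the thresholds with higher TE lie mostly above 0 on the y axis near 0 on the x axis, and a few lie below 0 on both axes.

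The gene with the lowest p was *scaf* (chromosome arm 2R, 5676750 to 5691723, minus strand), which encodes a secreted protein related to serine proteases but without catalytic activity. Its level was 20.1 and 21.9 CPM in *bam* RNAi polysomes and 22.2 and 18.9 CPM in *bam* RNAi inputs. In UAS-*tkv* it was 0 in both polysome libraries and 4.37 and 5.27 CPM in the inputs. Thus all 4 *bam* RNAi libraries were alike, and the UAS-*tkv* polysomes held no read of an mRNA that their inputs held at 71 counts. Against the limit that 0 counts allow (3 counts over the 2 UAS-*tkv* polysome libraries, 0.18 CPM), the polysome level was at least 119.7-fold higher in *bam* RNAi and the TE, from counts pooled over each pair of libraries, at least 27.2-fold higher. Such limits cover only the counting error of the 0 counts and take all other counts as exact. The unadjusted p of the TE difference was 8.74e-05 in edgeR's model, and the polysome difference passed at an adjusted p of 0.00926 in edgeR's quasi-likelihood test. The adjusted p of the TE difference ran from 1.98e-04 in DESeq2 to 1 over the alternatives.

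The FGF ligand gene *ths* (chromosome arm 2R, 11756817 to 11814424, plus strand) had 37.0 and 32.1 CPM in *bam* RNAi polysomes and 103 and 82.3 CPM in *bam* RNAi inputs, against 2.63 and 5.52 CPM in UAS-*tkv* polysomes and 33.1 and 47.6 CPM in UAS-*tkv* inputs. Its mRNA was below its input level in polysomes of both genotypes, and far more so in UAS-*tkv*. The TE difference was 1.92 ± 0.60 on the log2 scale (SE, n = 2 libraries per group). Its p was 0.0094 and its adjusted p 1 in edgeR's quasi-likelihood test, and the polysome level was higher in *bam* RNAi at an adjusted p of 0.042 in the same model.

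*Eph* (chromosome 4, 610684 to 622470, plus strand), the Eph receptor tyrosine kinase gene, had 113 and 119 CPM in *bam* RNAi polysomes and 208 and 145 CPM in *bam* RNAi inputs. In UAS-*tkv* it had 33.1 and 34.2 CPM in polysomes and 129 and 120 CPM in inputs. The 2 polysome libraries of each genotype were close together, and the genotypes were apart by 1.28 ± 0.43 in log2 TE (SE, n = 2 libraries per group). Its unadjusted p was 0.014 in edgeR's quasi-likelihood test, and the difference was 1.05 without *bam* RNAi input replicate 2.

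*Pkc98E*, a protein kinase C gene, had 16.7 and 22.4 CPM in *bam* RNAi polysomes and 68.8 and 62.1 CPM in *bam* RNAi inputs, against 4.67 and 3.68 CPM in UAS-*tkv* polysomes and 40.7 and 58.5 CPM in UAS-*tkv* inputs. The genotypes overlapped in neither fraction, and the gap between them was wider in polysomes than in inputs. The log2 TE difference was 1.81 ± 0.54 (SE, n = 2 libraries per group). Its unadjusted p was 0.0073 in edgeR's quasi-likelihood test, and the difference ran from 1.53 to 2.17 leaving out 1 library.

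The other genes of this kind were less well measured. *CG2065* had 13.3 and 20.5 CPM in *bam* RNAi polysomes and 17.3 and 29.4 CPM in *bam* RNAi inputs, against 0.34 and 0 CPM in UAS-*tkv* polysomes and 4.92 and 7.31 CPM in UAS-*tkv* inputs. The genotypes overlapped in neither fraction. In counts it had 420 in *bam* RNAi polysomes and 4 in UAS-*tkv* polysomes, a scaled ratio of 79.7 with a 95% counting interval from 30.9 to 294 (exact binomial). *CG45263* had 240 and 10 counts (ratio 18.2, interval 9.74 to 38.5) and *CG32694* had 497 and 29. The log2 TE differences were 4.27 ± 1.13, 4.27 ± 1.34 and 2.96 ± 0.94 for *CG2065*, *CG45263* and *CG32694* (SE, n = 2 libraries per group). Without UAS-*tkv* polysome replicate 1 these became 8.59, 9.81 and 4.94, and without replicate 2 they were 3.66, 3.55 and 2.32. The values 8.59 and 9.81 rest on a UAS-*tkv* polysome library with 0 CPM of *CG2065* and of *CG45263*, so their size is not measured. The unnamed identifier FBgn0261548 had a difference of 2.54 ± 0.75. *Hr3*, an ecdysone-induced nuclear receptor gene, had 28 counts in *bam* RNAi polysomes and 0 in UAS-*tkv* polysomes. With all counts but that 0 taken as exact, its TE was at least 4.77-fold higher in *bam* RNAi. Its unadjusted p was 0.032 in edgeR's quasi-likelihood test, and its log2 TE difference ran from 0.16 to 7.48 over the alternatives.

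*CG4009* and *pgc* reached the same set by another route, since they were lower in *bam* RNAi in both fractions. *CG4009* had 2.17 and 1.01 CPM in *bam* RNAi polysomes and 0.20 and 0.17 CPM in *bam* RNAi inputs, against 61.0 and 139.7 CPM in UAS-*tkv* polysomes and 65.3 and 142 CPM in UAS-*tkv* inputs. *pgc*, whose product represses transcription in the germ cells of the embryo, had 4.35 and 2.70 CPM in *bam* RNAi polysomes and 0.47 and 0.84 CPM in *bam* RNAi inputs. In UAS-*tkv* it had 33.6 and 11.5 CPM in polysomes and 50.6 and 19.0 CPM in inputs. Their log2 TE differences, 2.90 ± 0.96 and 3.01 ± 1.03 (SE, n = 2 libraries per group), rest on *bam* RNAi inputs of 5 and 17 counts in all, and that of *pgc* ran from 2.15 to 4.15 leaving out 1 library. The input difference was -9.03 and -5.72 on the log2 scale (adjusted p = 0.00439 and 0.042 in edgeR's quasi-likelihood test).

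The 10 named genes with lower TE in *bam* RNAi had transcripts of 290 to 2017 nt. Leaving out 1 of the 8 libraries, their log2 TE differences ran from -3.17 (*CG31360*) to -0.58 (*UQCR-11*). For *UQCR-11*, *CG10418*, *CG34200*, *Sirup*, *loqs* and *CG44476* the difference was under 2-fold in at least 1 such fit. Each such fit leaves a single library in a group. *Sf3b5* (chromosome arm 3R, 9014972 to 9015341, minus strand), a subunit gene of the SF3b splicing complex, had 30.4 and 47.8 CPM in *bam* RNAi polysomes and 34.5 and 28.6 CPM in *bam* RNAi inputs. In UAS-*tkv* it had 55.4 and 94.1 CPM in polysomes and 21.0 and 18.7 CPM in inputs. Its log2 TE difference was -1.59 ± 0.56 (SE, n = 2 libraries per group). Its unadjusted p was 0.018 in edgeR's quasi-likelihood test.

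*UQCR-11*, a subunit gene of respiratory complex III (chromosome arm 3L, 25120709 to 25126171, plus strand), had 119.8 and 181 CPM in *bam* RNAi polysomes and 101 and 130.3 CPM in *bam* RNAi inputs. It had 164 and 521 CPM in UAS-*tkv* polysomes and 81.5 and 87.6 CPM in UAS-*tkv* inputs. The UAS-*tkv* polysome libraries lay far apart, and replicate 1 was below *bam* RNAi polysome replicate 2. The log2 TE difference was -1.64 ± 0.70 (SE, n = 2 libraries per group). Its unadjusted p was 0.041 in edgeR's quasi-likelihood test, and the difference was -0.58 without UAS-*tkv* polysome replicate 2.

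*loqs*, which encodes a double-stranded RNA-binding partner of Dicer enzymes, was the longest transcript of the 10 named lower genes at 2017 nt. It had 18.8 and 28.9 CPM in *bam* RNAi polysomes and 39.4 and 48.6 CPM in *bam* RNAi inputs, against 31.2 and 41.9 CPM in UAS-*tkv* polysomes and 23.2 and 31.6 CPM in UAS-*tkv* inputs. The order of the fractions was thus opposite in the 2 genotypes, although UAS-*tkv* polysome replicate 1 was just under UAS-*tkv* input replicate 2. Its log2 TE difference was -1.29 ± 0.56 (SE, n = 2 libraries per group). Its unadjusted p was 0.044 in edgeR's quasi-likelihood test.

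The remaining named lower genes were *pen-2*, a gamma-secretase subunit gene, *Sirup*, an assembly factor gene of succinate dehydrogenase, and *CG31360*, *CG44476*, *CG4743*, *CG10418* and *CG34200*. *pen-2* had 15.5 and 26.5 CPM in *bam* RNAi polysomes and 19.6 and 29.7 CPM in *bam* RNAi inputs, against 31.4 and 66.3 CPM in UAS-*tkv* polysomes and 14.6 and 15.6 CPM in UAS-*tkv* inputs. *Sirup* had 55.3 and 85.0 CPM in *bam* RNAi polysomes and 46.0 and 59.2 CPM in *bam* RNAi inputs, against 96.5 and 133 CPM in UAS-*tkv* polysomes and 37.7 and 34.3 CPM in UAS-*tkv* inputs. For both genes the UAS-*tkv* polysomes were the highest libraries, and for *Sirup* the UAS-*tkv* inputs were the lowest. The log2 TE differences of the 7 genes ran from -2.05 (*CG31360*) to -1.25 (*Sirup*), each with a p from 0.020 to 0.045 in edgeR's quasi-likelihood test and an adjusted p of 1. For each of the 10 named lower genes the 4 polysome over input ratios of *bam* RNAi were all below the 4 of UAS-*tkv*, which the naming rule required and which was also true of 4.51% of all genes tested. The equivalent share for higher ratios was 4.45%.

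**Figure D2:**
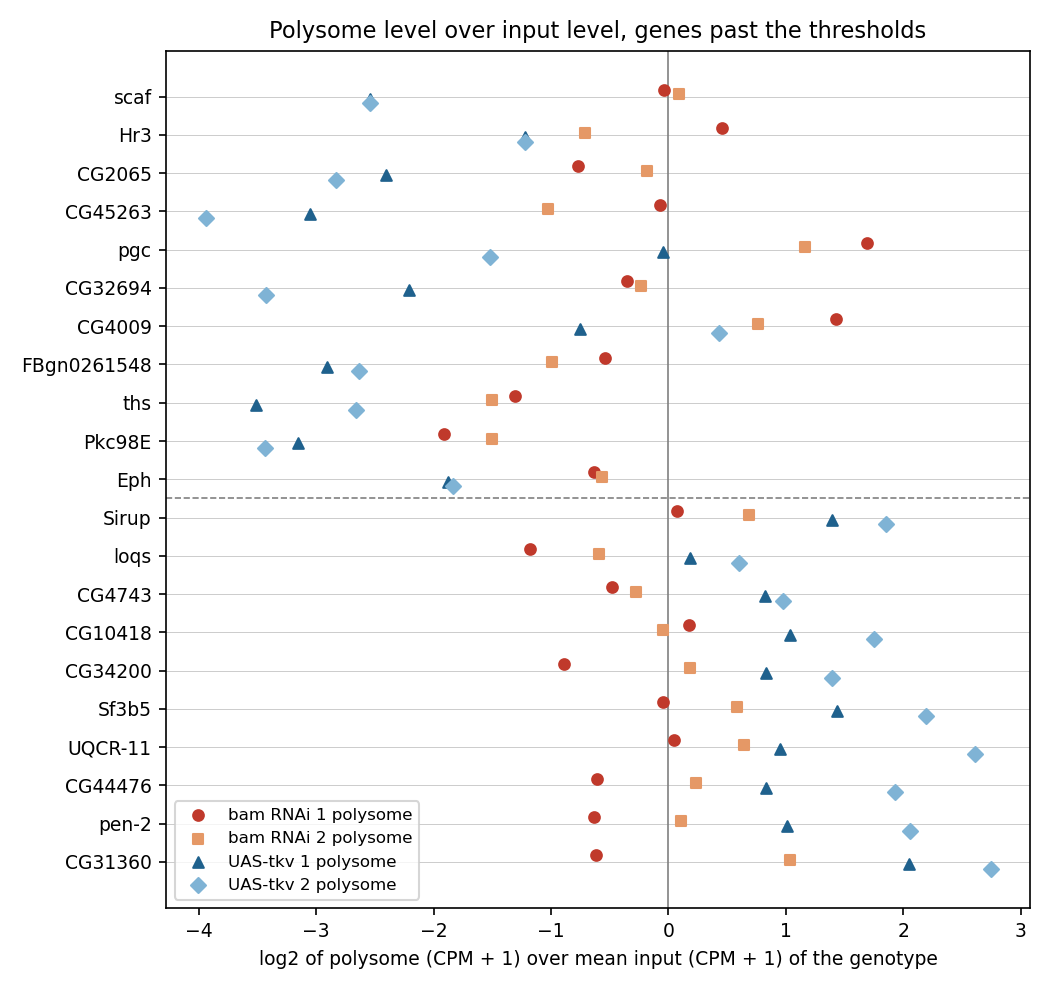
Log2 of polysome over mean input level (x axis, CPM + 1) in each polysome library for the 21 genes named from the ranked sets, with higher TE in *bam* RNAi above the dashed line and lower TE below it. In *scaf*, *ths*, *Pkc98E* and *Eph* the *bam* RNAi points sit right of the UAS-*tkv* points because UAS-*tkv* polysomes held little of the mRNA, whereas for the lower genes the UAS-*tkv* points lie right of 0.

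**Figure D3:**
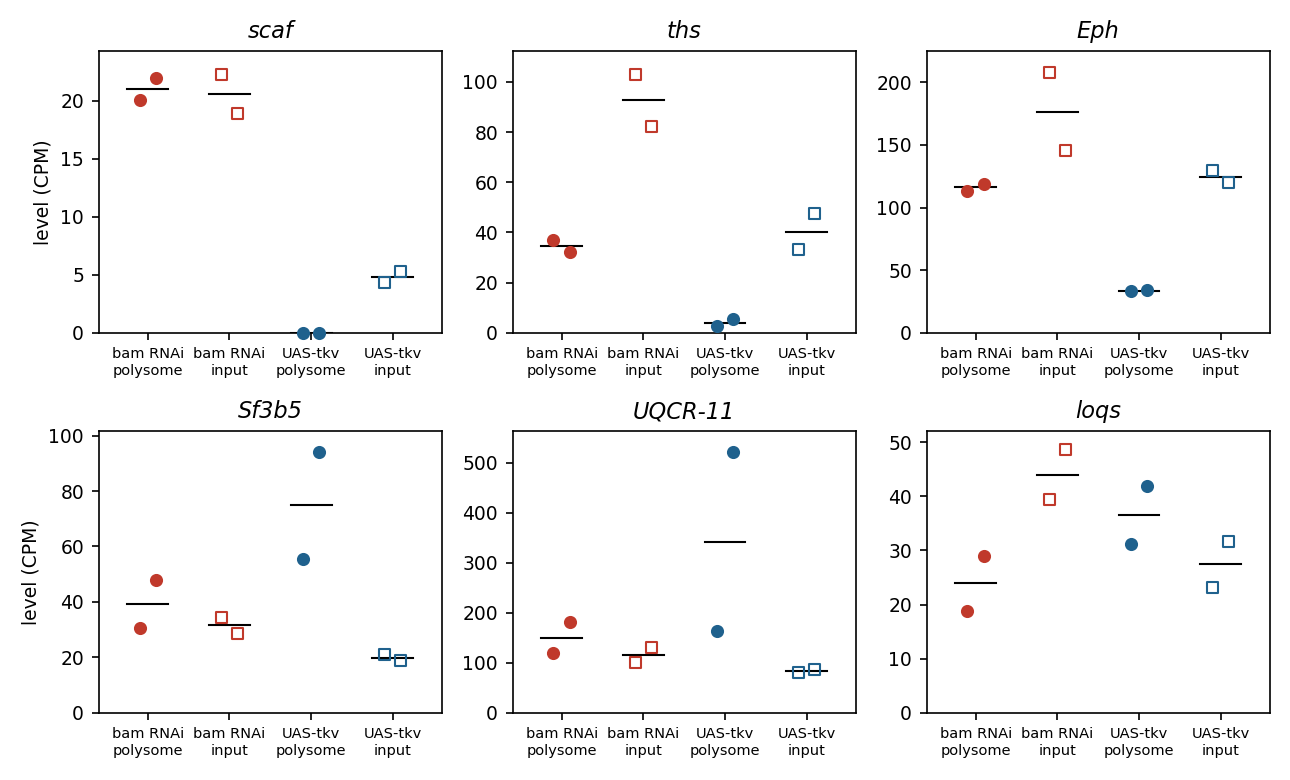
Levels (y axis, CPM) of 6 genes in the 8 libraries, with polysome libraries as filled circles, input libraries as open squares and the mean of each pair as a bar. *scaf*, *ths* and *Eph* were low in both UAS-*tkv* polysome libraries, and *Sf3b5* and *UQCR-11* were highest in UAS-*tkv* polysome replicate 2 (94.1 and 521 CPM).

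The genes that define the genotypes did not differ in TE past either threshold. *bam* itself had 0 and 0.73 CPM in *bam* RNAi polysomes and 3.74 and 2.61 CPM in *bam* RNAi inputs, against 7.81 and 4.71 CPM in UAS-*tkv* polysomes and 8.63 and 8.67 CPM in UAS-*tkv* inputs. It was lower in every *bam* RNAi library than in every UAS-*tkv* library with an input difference of -1.44 (adjusted p = 1 in edgeR's quasi-likelihood test) and a log2 TE difference of -2.34 ± 1.51 (SE, n = 2 libraries per group). The TE difference was -7.38 without *bam* RNAi polysome replicate 2 and -1.61 without replicate 1. The value -7.38 rests on a *bam* RNAi polysome library with 0 CPM of *bam*, so its size is not measured. *tkv* had 105 and 181 CPM in *bam* RNAi polysomes and 213 and 142 CPM in *bam* RNAi inputs, against 271 and 269.6 CPM in UAS-*tkv* polysomes and 258 and 286 CPM in UAS-*tkv* inputs. All 4 UAS-*tkv* values were above all 4 of *bam* RNAi, and the log2 TE difference was -0.30 ± 0.52 (SE, n = 2 libraries per group).

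*Dcr-2* levels did not separate the line with UAS-Dicer2 from the line without it. The gene had 191 and 307 CPM in *bam* RNAi polysomes and 731 and 303 CPM in *bam* RNAi inputs, against 228 and 233 CPM in UAS-*tkv* polysomes and 349.6 and 374 CPM in UAS-*tkv* inputs. Its log2 TE difference of -0.40 ± 0.63 (SE, n = 2 libraries per group) became 0.37 without *bam* RNAi input replicate 1, the library with 731 CPM.

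*RpS19b*, a germline-enriched paralog of a small-subunit ribosomal protein, had 246 and 189 CPM in *bam* RNAi polysomes and 176 and 188 CPM in *bam* RNAi inputs. In UAS-*tkv* it had 265 and 375 CPM in polysomes and 229 and 189 CPM in inputs. The log2 TE difference was -0.35 ± 0.47 (SE, n = 2 libraries per group). *ord*, which acts in sister chromatid cohesion in meiosis, had 57.3 and 126.7 CPM in *bam* RNAi polysomes and 105.5 and 59.8 CPM in *bam* RNAi inputs, against 79.3 and 102 CPM in UAS-*tkv* polysomes and 82.0 and 78.7 CPM in UAS-*tkv* inputs. Its *bam* RNAi replicates lay on either side of the UAS-*tkv* values in both fractions, and the log2 TE difference was -0.01 ± 0.60 (SE, n = 2 libraries per group). With an SE of that size a 2-fold difference in *ord* TE would not have been detectable.

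Gene lists were read against all 9585 genes, whose median log2 TE difference was -0.01. Ribosomal protein mRNAs varied more between the *bam* RNAi libraries than between genotypes. Of 81 cytosolic ribosomal protein genes 79 were tested, and 0 passed either threshold, against 1.05% of all genes at the thresholds of the study. Their median log2 TE difference was 0.19, with 57 of 79 above 0. Relative to its inputs the list stood at medians of 1.22 (replicate 1) and -1.30 (replicate 2) in the *bam* RNAi polysome libraries, and of 0.17 and 0.29 in those of UAS-*tkv*. For 70 of the 79 genes the *bam* RNAi polysome libraries fell on either side of both UAS-*tkv* libraries, which was true of 25.3% of all genes tested. The median became -1.41 without *bam* RNAi polysome replicate 1 and 0.92 without replicate 2, so no direction can be given for these mRNAs.

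The 9 tested paralogs of ribosomal proteins with ovary-enriched or variant forms showed the same split (1.94 and -0.24 in *bam* RNAi, 0.73 and 0.84 in UAS-*tkv*; median TE difference 0.33, 0 past either threshold). Mitochondrial ribosomal protein mRNAs were polysome-enriched in all 4 libraries, at medians of 1.30 and 0.38 in *bam* RNAi and 0.85 and 1.10 in UAS-*tkv*. Their median TE difference was -0.07 over 70 genes, of which 0 passed either threshold. Oxidative phosphorylation subunits were similar, at 1.53 and 0.37 in *bam* RNAi and 1.01 and 1.25 in UAS-*tkv*, with a median TE difference of -0.04 over 63 genes and *UQCR-11* as the 1 member past the thresholds of the study.

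Other parts of the machinery stayed near the median of all genes, each with 0 members past either threshold. The median log2 TE difference was -0.13 for 38 translation initiation factors, -0.06 for 8 elongation and release factors and -0.09 for 31 aminoacyl-tRNA synthetases. It was -0.05 for 43 ribosome biogenesis genes, 0.07 for 32 proteasome subunits and -0.11 for 19 genes of translocation into the endoplasmic reticulum.

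Germline lists gave small median differences as well. Of 26 meiosis genes 14 were above 0 (median 0.07) and 0 passed either threshold. The extremes were *mei-218* at 3.42, which had 0 and 0.20 CPM in the UAS-*tkv* polysomes, and *mei-38* at -0.86. The synaptonemal complex gene *c(3)G* had the lowest p of the list (0.055 in edgeR's quasi-likelihood test). Its level was 109 and 136 CPM in *bam* RNAi polysomes and 223 and 169.6 CPM in *bam* RNAi inputs, against 45.0 and 50.9 CPM in UAS-*tkv* polysomes and 152 and 144 CPM in UAS-*tkv* inputs. These 3 were chosen after their values were seen. Of 34 double-strand break repair genes 21 were above 0 (median 0.12) and 0 passed either threshold. Relative to mean input, both *bam* RNAi polysome libraries exceeded both of UAS-*tkv* for 10 of the 34, against 12.2% of all genes. Both lay below for 3 of the 34, against 13.1% of all genes. For the 26 meiosis genes these counts were 5 and 5.

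The piRNA pathway, which silences transposons in the germline, had 8 of 29 genes above 0 and a median of -0.15. Regulators of germline differentiation and translational repression had 17 of 26 above 0 and a median of 0.21, and RNA-binding regulators of the ovary had 20 of 28 above 0 and a median of 0.29, with *loqs* as the 1 member past the thresholds of the study. Both polysome libraries of *bam* RNAi exceeded both of UAS-*tkv* for 9 of these 26 and 9 of these 28 genes, against 12.2% of all genes. Both lay below for 2 and 1 of them, against 13.1% of all genes. Members of both lists are long mRNAs, with median transcripts of 4042 and 4095 nt.

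Signalling lists of long mRNAs had positive medians too. BMP signalling genes had a median of 0.32 (11 of 16 above 0), insulin and TOR signalling genes 0.20 (17 of 21) and ecdysone response genes 0.43 (10 of 14, with *Hr3* past the thresholds of the study). Leaving out 1 library, the BMP median ran from -0.41 (without *bam* RNAi polysome replicate 2) to 0.73 (without *bam* RNAi polysome replicate 1). The insulin and TOR median ran from -0.13 (without *bam* RNAi polysome replicate 2) to 0.75 (without UAS-*tkv* polysome replicate 1) and was -0.074 without UAS-*tkv* polysome replicate 2. Without UAS-*tkv* polysome replicate 1 the medians of 19 of 31 lists moved by more than the spread between libraries.

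**Figure D4:**
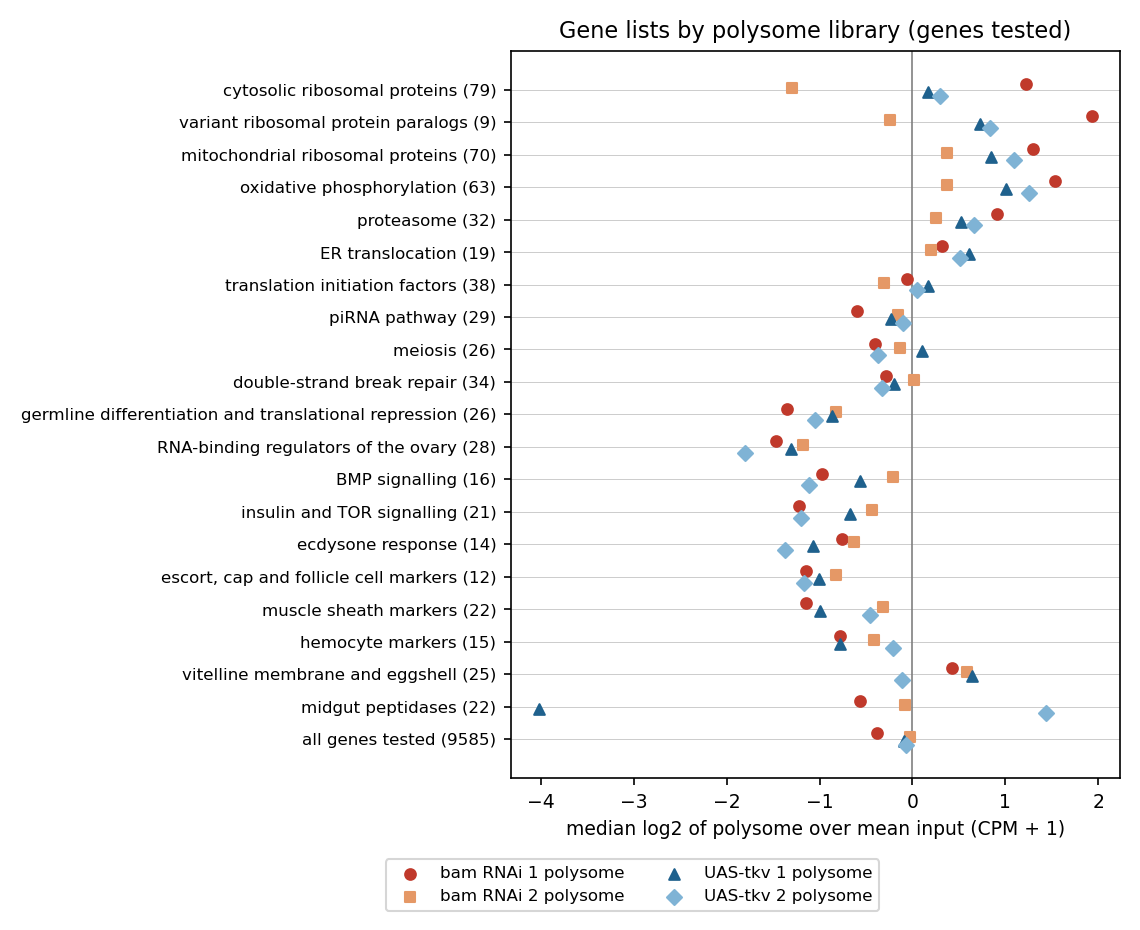
Median log2 of polysome over mean input level (x axis) for 20 gene lists and all genes tested, by polysome library, with the number of genes tested in parentheses. Cytosolic ribosomal proteins lie at 1.22 and -1.30 in the *bam* RNAi libraries and at 0.17 and 0.29 in the UAS-*tkv* libraries, and midgut peptidases lie at -4.03 and 1.44 in the UAS-*tkv* libraries. For midgut peptidases the UAS-*tkv* inputs also lay far apart (sums of 13.7 and 1369.8 CPM), and only their mean enters the ratio.

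TE differences followed transcript length. Over 6849 protein-coding genes at a mean of 10 CPM or more, sorted into 10 equal bins, polysome libraries were enriched for short mRNAs in both genotypes. From the shortest bin (median 692 nt) to the longest (median 6649 nt), the median log2 ratio to input was 0.78 and -1.29 in *bam* RNAi polysome replicate 1 and 0.39 and -0.83 in replicate 2. It was 0.67 and -1.12 in UAS-*tkv* polysome replicate 1 and 1.12 and -1.50 in replicate 2. From the shortest to the longest bin the fall was thus smallest in *bam* RNAi polysome replicate 2 and largest in UAS-*tkv* polysome replicate 2. Between the libraries numbered 1 it was larger in *bam* RNAi than in UAS-*tkv*, the opposite order. Spearman's rho between length and the ratio was -0.587 and -0.608 in *bam* RNAi and -0.593 and -0.758 in UAS-*tkv*, so only UAS-*tkv* polysome replicate 2 stood apart. The median log2 TE difference was -0.29 in the shortest bin and 0.21 in the longest, and Spearman's rho between length and TE difference was 0.29 across genes, which share their 8 libraries and are not independent. The shortest bin held 8 of the 11 genes with lower TE that passed the thresholds of the study at this level, and the longest bin held 9 of the 27 with higher TE. When the trend with length was removed from each library, *UQCR-11*, *Sf3b5* and 5 other named genes with lower TE no longer passed, whereas *scaf*, *ths*, *Eph* and *Pkc98E* did. The part of RNA quality or gradient pooling in this trend was not tested.

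**Figure D5:**
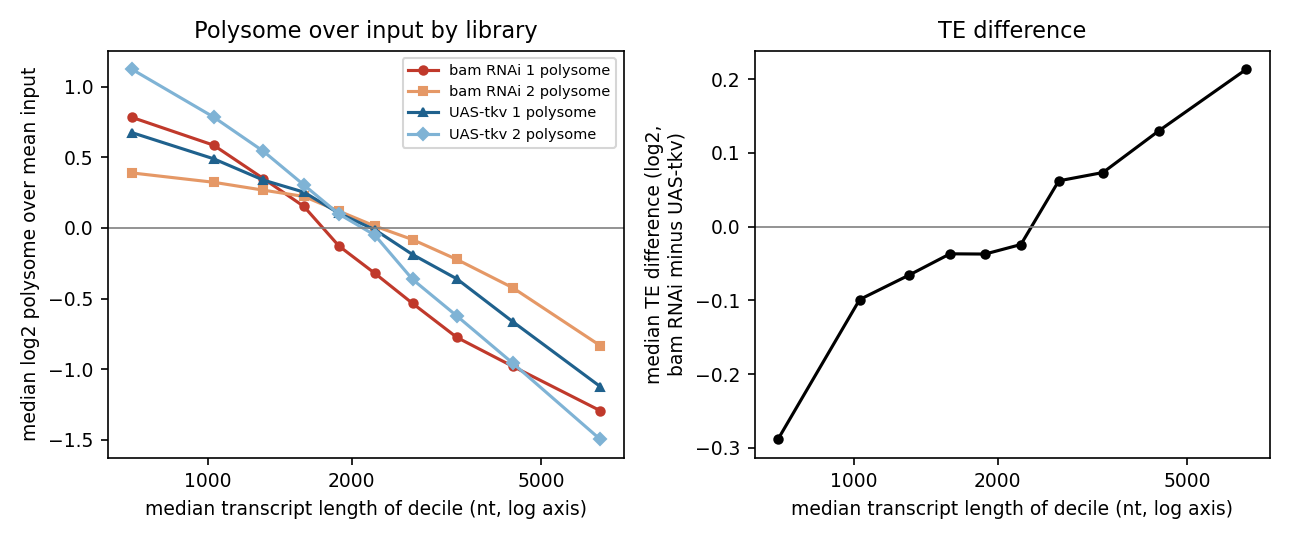
Left, median log2 of polysome over mean input level (y axis) against the median transcript length of 10 bins of genes (x axis, log scale) for the 4 polysome libraries. Right, the median TE difference of the same bins, which runs from -0.29 to 0.21.

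Each genotype was also examined alone. In UAS-*tkv*, 199 genes (2.08%) were lower in polysomes than in input and 6 (0.0626%) were higher at an adjusted p under 0.05 in edgeR's quasi-likelihood test. In *bam* RNAi no gene passed in either direction (0 of 9585, or 0%), with 1497 genes at an unadjusted p under 0.05, against 2094 in UAS-*tkv*. For the 199 genes the median log2 ratio of polysome to input was -1.52 in *bam* RNAi and -2.25 in UAS-*tkv*, and 198 of them were below input in *bam* RNAi as well. Since the 199 genes were chosen on the UAS-*tkv* libraries, a smaller value in *bam* RNAi is no test of a difference, and 24 of them were among the 78 with higher TE. The 199 genes had long mRNAs (median 5263 nt), whereas the 6 genes higher in UAS-*tkv* polysomes were short (median 621 nt) and included 3 of the 23 with lower TE. The count in *bam* RNAi was 1129 without its polysome replicate 2 and 0 without any 1 of its other 3 libraries, and the count in UAS-*tkv* was 0 without any 1 of its own 4 libraries. Each of these fits leaves a single library in a group, which is assumed to vary like the other groups. With all 8 libraries and no filter on low counts the *bam* RNAi count was 648, and with 12 libraries it was 47.

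Genotypes were also compared within a fraction. At the polysome level 14 genes (0.146%) differed at an adjusted p under 0.05 and at the input level 19 (0.198%) did, in edgeR's quasi-likelihood test, and 10 genes were in both sets. All 14 and all 19 had the same sign in the other fraction. Eggshell genes made up 4 of the 14 and 6 of the 19 and fell in *bam* RNAi. The summed level of 25 eggshell genes was 1565 and 4997 CPM in *bam* RNAi polysomes and 535 and 3503 CPM in *bam* RNAi inputs, against 23697 and 13673 CPM in UAS-*tkv* polysomes and 11422 and 6954 CPM in UAS-*tkv* inputs. The median log2 difference of the list was -4.09 in polysomes, -4.05 in inputs and 0.03 in TE. Eggshell genes are expressed by follicle cells of late egg chambers, and the part of such cells in the TE values was not tested. Among the 19 were also *osk* and *dhd*. *osk* had 5.81 and 3.88 CPM in *bam* RNAi inputs, against 282 and 156 CPM in UAS-*tkv* inputs. *dhd* had 6.61 and 8.51 CPM in *bam* RNAi inputs, against 714 and 299 CPM in UAS-*tkv* inputs. The median log2 input difference of 24 oocyte and maternal factors was -0.95.

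The summed level of 12 escort, cap and follicle cell markers was 824 and 1137 CPM in *bam* RNAi polysomes and 2329 and 1879 CPM in *bam* RNAi inputs, against 504 and 531 CPM in UAS-*tkv* polysomes and 1222 and 1474 CPM in UAS-*tkv* inputs. These sums did not overlap between the 2 genotypes in either fraction. Of the members examined singly, *Fas3*, *fax* and *Wnt4* did not overlap in either fraction. *tj* and *hh* overlapped in both, and *ptc* overlapped in polysomes. The share of all genes that did not overlap in this way was not counted, so no excess can be read from these markers or sums. Sheath muscle markers (22 genes) summed to 13654 and 23120 CPM in *bam* RNAi polysomes, against 7454 and 13577 CPM in UAS-*tkv* polysomes, and to 18479 and 32741 CPM in *bam* RNAi inputs, against 9160.5 and 19549 CPM in UAS-*tkv* inputs. Hemocyte markers (15 genes) summed to 2987 and 3505 CPM in *bam* RNAi polysomes, against 1453 and 2325 CPM in UAS-*tkv* polysomes, and to 6489 and 4109 CPM in *bam* RNAi inputs, against 2620 and 4433 CPM in UAS-*tkv* inputs. For both lists the genotypes overlapped in the inputs but not in the polysomes. The hemocyte receptor gene *NimC1* rose in *bam* RNAi at both levels (polysome adjusted p = 0.018 and input adjusted p = 0.048 in edgeR's quasi-likelihood test). Its log2 TE difference was 1.26, which did not pass either threshold. The germline genes *aub* and *ovo* were present in all 8 libraries. Digestive peptidases of the midgut (22 genes tested) summed to 25.1 and 143 CPM in *bam* RNAi polysomes, against 10.8 and 2326 CPM in UAS-*tkv* polysomes, and to 13.5 and 129 CPM in *bam* RNAi inputs, against 13.7 and 1369.8 CPM in UAS-*tkv* inputs. Their median TE difference of -0.89 came with medians of -4.03 and 1.44 in the 2 UAS-*tkv* polysome libraries. Each of these medians was taken over the mean of both UAS-*tkv* inputs. The sums of those inputs differed widely and in the same order as the polysome sums, so the split is no measure of opposite polysome loading. The part of these cells in the TE differences above was not tested.

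The third genotype of the series, *aramis* RNAi, also carried UAS-Dicer2, and its comparison with UAS-*tkv* uses the same 4 UAS-*tkv* libraries, so the values are given side by side only. In a fit of all 12 libraries the log2 TE difference from UAS-*tkv* was 8.37 in *aramis* RNAi and 8.48 in *bam* RNAi for *scaf*, 2.65 and 1.93 for *ths*, and 1.77 and 1.29 for *Eph*. It was -0.65 and -1.59 for *Sf3b5*, -0.88 and -1.63 for *UQCR-11* and -1.36 and -1.29 for *loqs*. Between the 2 RNAi lines none of the 26 named genes passed in TE (0% of all genes), with adjusted p from 0.928 to 1 in edgeR's quasi-likelihood test over 9745 genes, of which 307 had an unadjusted p under 0.05. In that fit *scaf* was the 1 gene called between *bam* RNAi and UAS-*tkv* (adjusted p = 0.022 in edgeR's quasi-likelihood test).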

How the data were processed

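Poly(A)-selected, directional libraries were made from input and polysome RNA of ovaries. The authors deposited whole-number read counts per gene for each library, which were used as deposited. The submitters' processing notes name HISAT2 2.1.0, featureCounts 1.4.6 and the dm6 build, whereas the methods of the study name STAR, and the strand setting of the counting is not given in the sources used here. Counts of overlapping or antisense genes may therefore be mixed.

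Symbols, coordinates and transcript lengths were taken from Ensembl gene models on dm6, which held 16647 of the 17023 identifiers and lacked 376. Low genes were removed with filterByExpr by group (7438 genes), libraries were scaled by TMM, and edgeR 4.0.16 in R 4.3.3 was fitted by quasi-likelihood to the 4 group means of the 8 libraries. TE was the interaction of fraction and genotype, tested two-sided with Benjamini-Hochberg adjustment over all 9585 genes. The residual degrees of freedom were 4 and the common dispersion was 0.226. CPM used the scaled library size, and ratios per library were taken after adding 1 CPM. Alternatives used other scalings and filters, DESeq2 1.42.0, limma 3.58.1 on log2 TPM ratios (1 TPM added), all 12 libraries, replicate blocks, length correction and leaving out libraries.

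Genes named were those the labels or the study point to (*bam*, *tkv*, *Dcr-2*, *RpS19b* and *ord*), then up to 10 per direction past the thresholds of the study by lowest p, at a mean of 10 CPM or more and with all 4 polysome over input ratios of *bam* RNAi beyond all 4 of UAS-*tkv*, and up to 2 per direction of each of 32 gene lists. The driver gene *nos* and the germline gene *vas* could not be matched in the count tables by symbol, as was true of 55 list symbols. The members and the lists were chosen with earlier results of these data known. The fits were tested on simulated data.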

Additional observations from a re-analysis of the deposited data

Results flagged for a closer look

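*CG4743* had opposite polysome enrichment in the genotypes. Its level was 14.7 and 17.1 CPM in *bam* RNAi polysomes, below both *bam* RNAi inputs (19.4 and 22.4 CPM), and 36.0 and 40.1 CPM in UAS-*tkv* polysomes, above both UAS-*tkv* inputs (20.0 and 19.9 CPM). The difference itself was tested as the interaction, with a log2 TE difference of -1.32 (unadjusted p = 0.036 and adjusted p = 1 in edgeR's quasi-likelihood test).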

How the results depend on the processing

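At the thresholds of the study 78 genes had higher and 23 lower TE in *bam* RNAi, and at an adjusted p under 0.05 none did in edgeR's quasi-likelihood test. The counts at the thresholds of the study were 137 higher and 103 lower without a filter, 44 and 13 with a minimum of 5 CPM in 2 libraries, 146 and 54 with 12 libraries, 130 and 29 in DESeq2, 22 and 48 in limma, and 10 lower by library totals. At an adjusted p under 0.05 they were 3 higher and 4 lower without a filter, 1 higher with 12 libraries, 3 higher in DESeq2 and 1 lower in limma. Leaving out 1 library gave 25 to 332 higher and 8 to 632 lower genes, the 632 without *bam* RNAi polysome replicate 2 and the 332 without UAS-*tkv* polysome replicate 1. Without both *bam* RNAi libraries numbered 2, chosen after seeing the data, there were 329 higher and 446 lower. The median over all genes was then -0.22, and it was 0.22 without UAS-*tkv* polysome replicate 1 and -0.19 without *bam* RNAi polysome replicate 2.

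The replicate numbers did not pair inputs with polysomes in both genotypes: deviations from the group means correlated at -0.16 in *bam* RNAi and 0.70 in UAS-*tkv* across 7082 genes. With a replicate block by lysate 66 genes were higher and 38 lower, by number 77 and 38, and 49 of the 101 genes were shared with the block by lysate. With the *bam* RNAi numbers crossed, added after seeing the data, the counts were 91 and 47. With the length trend removed, also added then, they were 96 and 22, and 89 and 37 with the replicate block as well.

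The 14 genes called at the polysome level were 9 by library totals, 299 without a filter, 6 at the stricter minimum, 61 with 12 libraries, 35 with a replicate block by number, 0 without both *bam* RNAi libraries numbered 2, and 0 to 28 leaving out 1 library. The 19 called at the input level were 6 by RLE size factors, 11 by library totals, 172 without a filter, 8 at the stricter minimum, 31 with the block by number, 0 without both, and 0 to 28 leaving out 1 library. Polysome against input within *bam* RNAi gave 648 genes without a filter, 47 with 12 libraries, 1 with the block by number, 847 without both, and 0 to 1129 leaving out 1 library. Within UAS-*tkv* the 205 genes were 0 by library totals, 1027 without a filter, 790 with 12 libraries, 337 with the block by number, 624 without both, and 0 to 664 leaving out 1 library.

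Leaving out 1 library, the log2 TE difference ran from -0.74 to 0.089 for *tkv*, from -0.90 to 0.37 for *Dcr-2* and from -0.70 to 0.49 for *ord*. For *ord* it was also 0.046 by RLE size factors, 0.028 by upper quartile scaling, 0.14 by library totals, 0.046 in DESeq2 and 0.021 in limma. The cause of these changes was not tested. With 2 libraries per group, zero counts in polysome libraries and the spread between libraries of a group limit what can be detected.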

Other observations

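Values are given for 6 further genes of the 78 with higher TE in *bam* RNAi at the thresholds of the study, chosen after their values were seen and standing for no gene group. The FGF ligand gene *bnl* had 9.66 and 8.87 CPM in *bam* RNAi polysomes and 16.6 and 13.6 CPM in *bam* RNAi inputs, against 0 and 0.41 CPM in UAS-*tkv* polysomes and 9.73 and 11.9 CPM in UAS-*tkv* inputs. The potassium channel subunit gene *Hk* had 9.42 and 7.52 CPM in *bam* RNAi polysomes and 18.5 and 14.2 CPM in *bam* RNAi inputs, against 0 and 0.20 CPM in UAS-*tkv* polysomes and 8.30 and 7.99 CPM in UAS-*tkv* inputs. Both mRNAs were present in all 4 inputs and nearly without reads in the UAS-*tkv* polysomes.

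*SK*, a potassium channel gene, had 71 counts in *bam* RNAi polysomes and 0 in UAS-*tkv* polysomes, with 5.03 and 11.4 CPM in the UAS-*tkv* inputs. The G protein gene *Galphaq* had 32.4 and 32.1 CPM in *bam* RNAi polysomes and 95.4 and 110.5 CPM in *bam* RNAi inputs, against 5.86 and 9.21 CPM in UAS-*tkv* polysomes and 54.1 and 65.8 CPM in UAS-*tkv* inputs. The RNA-binding protein gene *msi* had 41.1 and 38.6 CPM in *bam* RNAi polysomes and 129.8 and 93.5 CPM in *bam* RNAi inputs, against 8.32 and 14.1 CPM in UAS-*tkv* polysomes and 80.8 and 74.6 CPM in UAS-*tkv* inputs. The genotypes overlapped in neither fraction for *Galphaq* and *msi*. *bru3*, another RNA-binding protein gene, differed from these: it had 85.0 and 36.7 CPM in *bam* RNAi polysomes and 82.4 and 34.4 CPM in UAS-*tkv* polysomes, while its inputs had 177 and 949.6 CPM in *bam* RNAi and 2728 and 3844 CPM in UAS-*tkv*.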
